A study of Arabidopsis thaliana with 2 samples.

Results

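The DUF26 domain genes described here are 10 loci of Arabidopsis thaliana, chosen by family with earlier results of these data known. For that reason they are treated below as chosen on the values that are described. They comprise 2 genes of secreted cysteine-rich proteins (AT3G22060 and AT5G48540) and the plasmodesmata-located protein genes PDLP2 (AT1G04520), PDLP3 (AT2G33330) and PDLP7 (AT5G37660). Also among them are the cysteine-rich receptor-like kinase genes CRK5 (AT4G23130), CRK6 (AT4G23140), CRK10 (AT4G23180) and CRK36 (AT4G04490). The remaining locus is EP1 (AT4G23170), also called CRK9, which is not classed as a kinase here because its protein sequence was not analysed. Of the 10 loci, 2 had a named probe set in the platform's annotation, the genes of the secreted proteins, among 13286 loci with a named probe set on the array. The other 8, which are the kinase genes, the plasmodesmata genes and EP1, were not analysed here. Every value for the family below therefore concerns these 2 genes and others listed as genes of secreted proteins.

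RNA was hybridised from GFP-TIE1-15, a transgenic line carrying GFP fused to TIE1, and from Columbia-0 wild type, with 1 array per genotype. Both were shoots cut from seedlings grown on plates for 14 days at 22 ± 2 °C with 16 h of light, after 3 days of cold. The labels give neither the promoter of the transgene nor the accession of the line, which is a single transgenic line, and do not say how many seedlings were pooled. TIE1 itself had no named probe set, so the level of the transgene was not analysed here.

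DUF26 is a plant domain built around conserved cysteines that form disulphide bridges. In receptor-like kinases of the CRK family it lies outside the cell, joined through a membrane span to a cytosolic kinase. Plasmodesmata-located proteins carry the domain and a membrane span without a kinase and sit at the channels between plant cells, where members of the family regulate callose. Secreted proteins carry the domain alone and enter the apoplast. A secreted DUF26 protein of Ginkgo biloba, ginkbilobin, is antifungal and binds mannose. In Arabidopsis many CRK transcripts are known to respond to pathogens, salicylate and reactive oxygen.

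Both secreted protein genes with values were lower in GFP-TIE1-15 shoots. AT3G22060 had a probe set signal of 70.9 in GFP-TIE1-15 and of 639.8 in wild type. On the linear scale the GFP-TIE1-15 signal was 0.111 of the wild-type signal. AT5G48540 had a signal of 96.0 in GFP-TIE1-15 and of 343.6 in wild type, a linear ratio of 0.279. Each gene was thus brighter in wild type than in GFP-TIE1-15, and each value comes from a single array with no replicate check. In whole shoots, fewer cells of a type and less RNA per cell cannot be told apart.

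Ratios were also taken as log2(signal + 50.0), which damps the differences of dim probe sets. On this scale AT3G22060 had a log2 ratio (GFP-TIE1-15 over wild type) of -2.51 and AT5G48540 one of -1.43. Their median was -1.97, beside a median of 0.01 over all 11308 measured probe sets, a probe set being measured if its brighter array reached a signal of 200.02. Both genes passed a size rule of 2-fold, and neither was higher in GFP-TIE1-15. The rule also took in 270 measured probe sets that were lower in GFP-TIE1-15, which is 2.39% of all, and 136 that were higher, which is 1.20%. The members were chosen on this same comparison, so nothing is read from their count against that share.

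**Figure D1:**
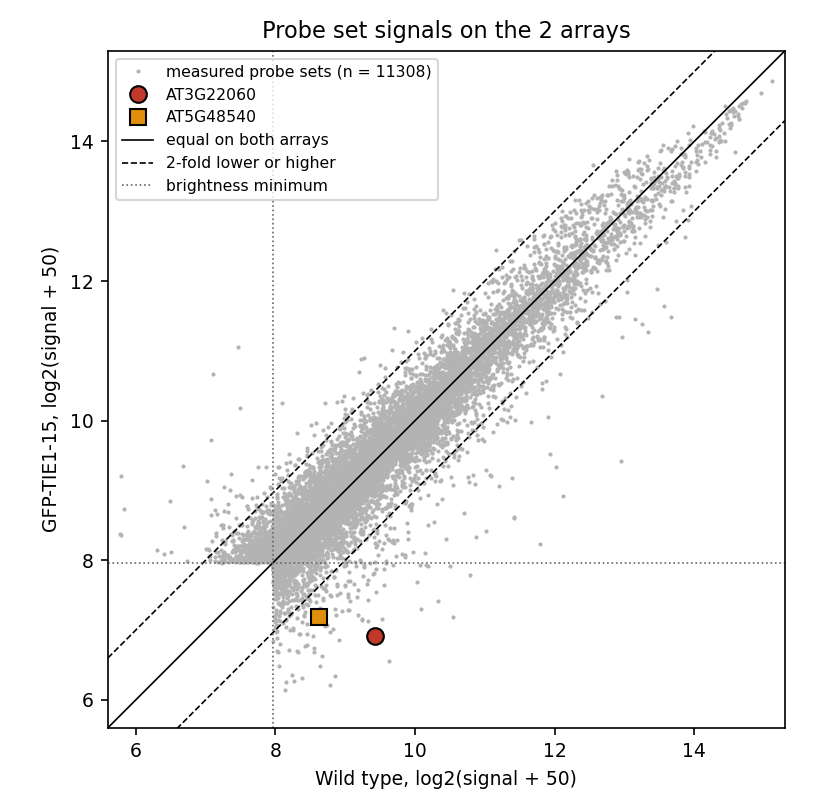
Each grey point is 1 of the 11308 measured probe sets, with log2(signal + 50) in GFP-TIE1-15 on the vertical axis and in wild type on the horizontal axis, and the dashed lines mark a 2-fold difference. AT3G22060 (circle, log2 ratio -2.51) and AT5G48540 (square, -1.43) both lie under the lower dashed line and under the brightness minimum of 200.02 in GFP-TIE1-15.

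The places of both genes among the ratios are a description only, because they were chosen on this comparison and their GFP-TIE1-15 signals were below the minimum. Ordered from the lowest log2 ratio, AT3G22060 was at place 16 of 11308 measured probe sets and at place 6 of the 5939 named probe sets. AT5G48540 was at place 113 of all and 47 of the named probe sets. The log2 ratio of AT3G22060 was lower than that of AT5G48540 by a difference of -1.08. Among the 500 probe sets nearest in mean signal, none had a ratio below that of AT3G22060, the lowest being -2.19, and 5 had one below that of AT5G48540. The spread of ratios among those neighbours in signal, given as a scaled median absolute deviation and called the local SD, was 0.36 around AT3G22060 and 0.47 around AT5G48540. AT3G22060 lay -7.11 local SDs from the local median and AT5G48540 -3.17. More than 3 local SDs below the local median lay 2.26% of measured probe sets. This spread is among genes on 2 arrays and does not measure the spread between plants. Genes chosen with these ratios known can lie outside that spread by the choice alone, so these distances support nothing.

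How dim the GFP-TIE1-15 signals were limits both ratios. Each gene reached the brightness minimum in wild type and not in GFP-TIE1-15, and for such a probe set the minimum fixes the sign of the ratio. In all, 561 measured probe sets reached it in wild type only, and 22.5% of them were at least 2-fold lower. Of the 10151 that reached it on both arrays, 1.42% were at least 2-fold lower. With the GFP-TIE1-15 signal set to the minimum of 200.02, a setting chosen after seeing the data, the log2 ratio was -1.46 for AT3G22060 and -0.65 for AT5G48540. On that scale AT3G22060 was more than 2-fold lower, and AT5G48540 was not. This outcome follows from the wild-type signals alone, so it is no check of the difference.

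**Figure D2:**
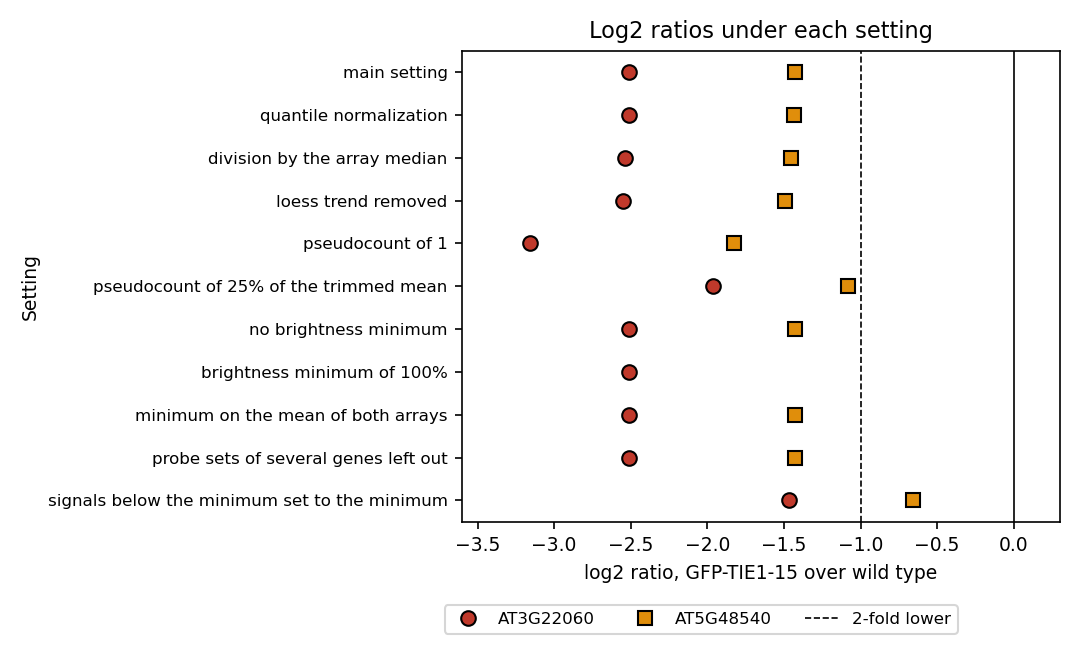
Points give the log2 ratio, GFP-TIE1-15 relative to wild type, for AT3G22060 (circles) and AT5G48540 (squares) under each setting, with a dashed line at 2-fold lower. All ratios lie below 0, AT3G22060 from -3.16 to -1.46 and AT5G48540 from -1.83 to -0.65, and only AT5G48540 with dim signals set to the minimum lies right of the dashed line. AT5G48540 has no point at the minimum of 100%, which it did not reach.

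Other genes of secreted DUF26 proteins gave little signal on either array. A list of 52 further loci was drawn up from general knowledge of the species after the values had been seen. Of these loci, 11 had a probe set of their own, none of which reached the brightness minimum, and their highest signal on either array was 46.5. Their summed signal was 127.7 in GFP-TIE1-15 and 158.1 in wild type. A further 16 listed loci lay on 3 probe sets that each covered several genes, most of them listed loci, and were left unnamed. The highest signal of these 3 probe sets was 22.8 in GFP-TIE1-15 and 14.5 in wild type.

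Several of the 11 dim genes lie on the same chromosome as AT3G22060. In the order of the TAIR10.1 gene table, AT3G22060 is the last of 6 consecutive protein-coding genes from AT3G22030 on that are all in the list or among the members. AT3G21960 had a signal of 5.5 in GFP-TIE1-15 and of 39.1 in wild type. AT3G22020 had 18.7 in GFP-TIE1-15 and 46.5 in wild type. Within the run of 6, AT3G22040 had 3.9 in GFP-TIE1-15 and 10.7 in wild type, and AT3G22050 had 3.7 in GFP-TIE1-15 and 1.4 in wild type. At signals this far under the minimum the order of the arrays cannot be read. On other chromosomes AT1G63550 had a signal of 41.0 in GFP-TIE1-15 and 19.5 in wild type.

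**Figure D3:**
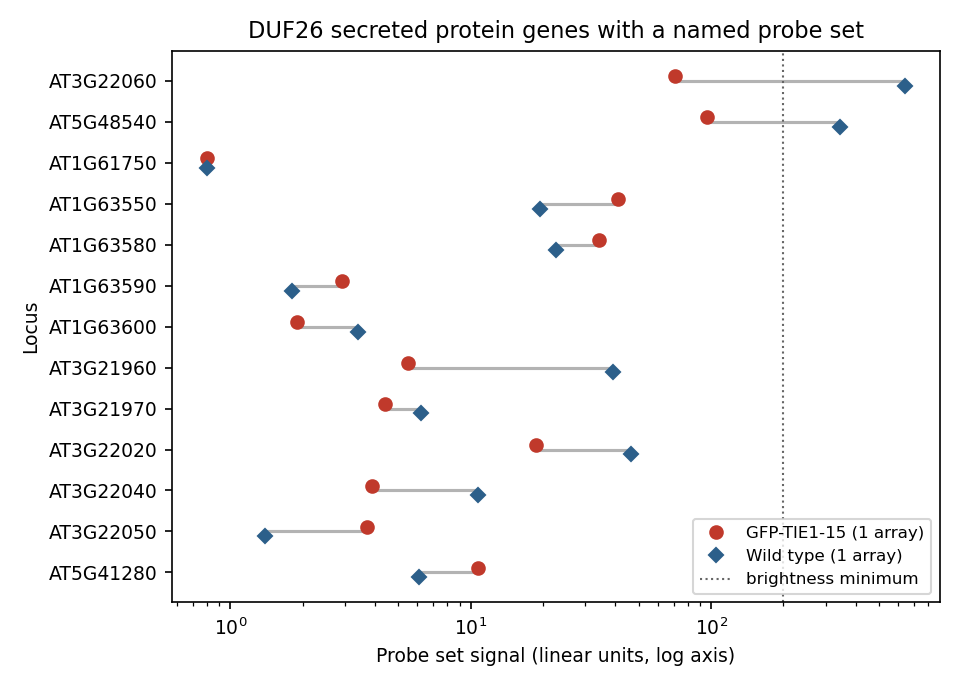
For each DUF26 secreted protein gene with its own probe set, the circle gives the signal in GFP-TIE1-15 and the diamond that in wild type, 1 array each, on a log axis in linear signal units, and the dotted line marks the brightness minimum of 200.02. Only the wild-type signals of AT3G22060 (639.8) and AT5G48540 (343.6) lie right of the line, and the other 11 genes stay at or below 46.5 on both arrays.

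Of the 4 genes within 2 places of AT3G22060, and likewise of AT5G48540, 1 had a named probe set and the others were not analysed here. Beside AT3G22060, AT3G22070 had a signal of 57.9 in GFP-TIE1-15 and of 74.2 in wild type, below the minimum on both arrays. Beside AT5G48540, AT5G48530 had 3.1 in GFP-TIE1-15 and 5.0 in wild type, also below the minimum. In a wider window of 5 protein-coding genes on each side, chosen after seeing the data, AT5G48570 was the only measured gene near AT5G48540 with a 2-fold difference. AT5G48570, of the FKBP-type immunophilins, had 92.1 in GFP-TIE1-15 and 556.6 in wild type, a log2 ratio of -2.09. It reached the minimum in wild type only, which fixes the sign of that ratio. AT5G48500, at the other edge of that window, had 244.9 in GFP-TIE1-15 and 201.0 in wild type (0.23).

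The loci without a named probe set can be placed only through their neighbours. EP1, CRK5, CRK6 and CRK10 belong to a run of 15 consecutive CRK genes, from AT4G23130 to AT4G23270, none of which had a named probe set. CRK36 is the first of a run of 4, up to AT4G04540, also without a named probe set. No gene within 2 places of CRK36 was measured. PDLP2 and PDLP3 each lie within 2 places of a gene of the MAC3 pair, which encodes U-box proteins of a complex that acts in RNA splicing and immunity. MAC3A, next to PDLP2, had a signal of 752.8 in GFP-TIE1-15 and of 571.4 in wild type, a log2 ratio of 0.37. MAC3B, near PDLP3, had 1425.6 in GFP-TIE1-15 and 1405.6 in wild type (0.02). AT5G37670, a small heat shock protein gene near PDLP7, had 141.2 in GFP-TIE1-15 and 235.1 in wild type (-0.58). It reached the minimum in wild type only, which fixes the sign of that ratio. None of these 3 passed the 2-fold rule, and they say nothing on the levels of the PDLP genes themselves.

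The genes whose pair of signals was nearest to that of AT3G22060, by Euclidean distance between log2 signals over the 2 arrays, were AT2G37870, AT5G48570 and AT5G19240. AT2G37870, of the lipid transfer protein family, had 90.2 in GFP-TIE1-15 and 589.9 in wild type, at a distance of 0.24. AT5G48570, given above, lay at 0.30. AT5G19240 had 93.1 in GFP-TIE1-15 and 555.6 in wild type, at 0.31. With 2 arrays this likeness amounts to a similar brightness and a similar ratio. As with AT3G22060, each of these genes reached the minimum in wild type only, which fixes the sign of its ratio.

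Few genes of the processes in which DUF26 proteins take part were measured, and none of them passed the 2-fold rule. Most measured probe sets did not pass it either, since 2.39% passed it as lower and 1.20% as higher. The lack of such a difference in so few genes therefore says nothing on these processes. None of the 38 other CRK genes and none of the 5 other PDLP genes that were listed had a named probe set. Of 30 salicylate and defence genes, 4 were named on the array and 2 of these were measured, with a median log2 ratio of -0.52. RING1 (AT5G10380), a ubiquitin ligase of programmed cell death, had a signal of 283.9 in GFP-TIE1-15 and of 448.5 in wild type, a log2 ratio of -0.58. SAG101 (AT5G14930), a partner of the immune regulator EDS1, had 144.4 in GFP-TIE1-15 and 218.6 in wild type (-0.47), and reached the minimum in wild type only. The glutaredoxin gene GRX480 (AT1G28480) was below the minimum, with 37.1 in GFP-TIE1-15 and 69.1 in wild type, as was AT1G75050, with 23.8 in GFP-TIE1-15 and 32.0 in wild type.

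Among 15 genes of plasmodesmata and callose, 3 were named on the array, all listed as genes of glucanases that can degrade callose, and 2 of these were measured, with a median of 0.29. AT3G13560 had a signal of 854.4 in GFP-TIE1-15 and of 647.4 in wild type (0.37). AT1G66250 had 288.5 in GFP-TIE1-15 and 243.2 in wild type (0.21), and AT2G01630 was below the minimum with 172.0 in GFP-TIE1-15 and 117.0 in wild type. The 2 measured genes were slightly brighter on the GFP-TIE1-15 array, by less than the 2-fold rule asks. AT3G13560 lay 1.19 local SDs above its local median and AT1G66250 lay 0.51 above. No shared direction is read from so few genes.

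Of 26 genes of pattern receptors and immune signalling, 3 were named on the array and 2 of these were measured, with a median of 0.02, of -0.01 when each array was divided by its own median and of -0.26 over all 3 with no brightness minimum. BIK1 (AT2G39660), a cytoplasmic kinase that acts under pattern receptors, had a signal of 763.2 in GFP-TIE1-15 and of 614.8 in wild type (0.29). FER (AT3G51550), the receptor kinase FERONIA, had 2635 in GFP-TIE1-15 and 3161 in wild type (-0.26). EFR (AT5G20480), the receptor for bacterial elongation factor Tu, was below the minimum with 52.9 in GFP-TIE1-15 and 83.8 in wild type.

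**Figure D4:**
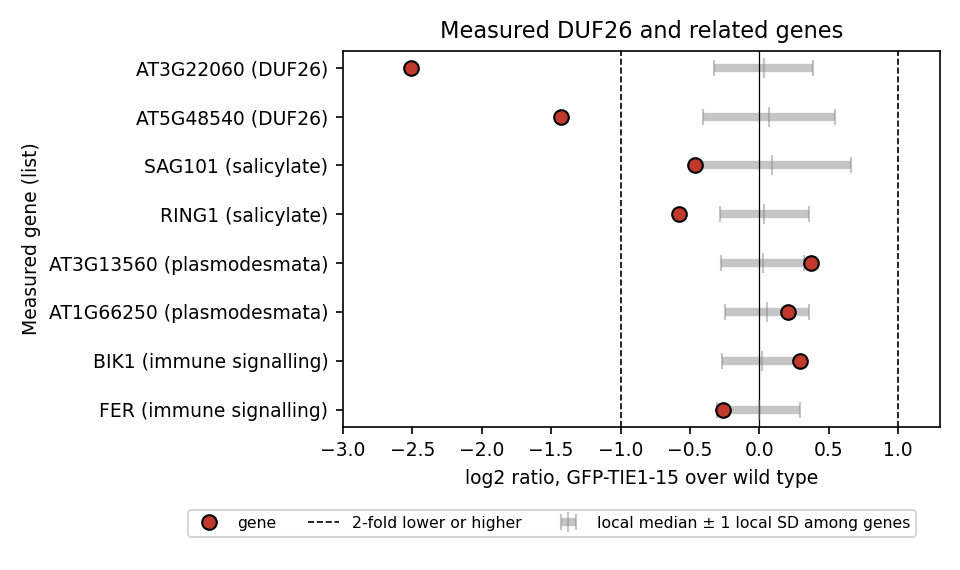
Circles give the log2 ratio, GFP-TIE1-15 relative to wild type, of each measured gene, grey bars the local median ± 1 local SD among genes of like signal, and dashed lines a 2-fold difference in either direction. AT3G22060 (-2.51) and AT5G48540 (-1.43) lie left of the lower dashed line, and the 6 measured genes of the other lists lie between -0.58 and 0.37.

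Organ markers were set beside the labelled tissue, with no clear outcome, because 1 listed root gene, PYK10, was bright on both arrays. The leaf genes LHCB4.1 (AT5G01530) and RCA (AT2G39730), of light harvesting and Rubisco activation, were the 2 of 13 listed leaf markers with a named probe set. LHCB4.1 had a signal of 20353 in GFP-TIE1-15 and of 25525 in wild type, and RCA had 16628 in GFP-TIE1-15 and 21195 in wild type. The list of root genes held 15 loci, of which 5 were named on the array and 4 of those were below the minimum on both arrays, with PYK10 (AT3G09260) at 5954 in GFP-TIE1-15 and 6746 in wild type. The summed signal of the 5 was 6031 in GFP-TIE1-15 and 6888 in wild type, nearly all of it from PYK10. Whether root tissue was present was not tested, nor was any part of it in the ratios of AT3G22060 and AT5G48540.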

How the data were processed

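Expression was measured on 2 Affymetrix arrays, 1 per genotype. The authors deposited probe set intensity values on a linear scale for 22810 probe sets per array, and GCOS 1.0 and MAS5 are named in the submitters' processing notes. With the top and bottom 2% of values trimmed, either array averaged 500.05, and the intensity was used as deposited. Names came from the platform's annotation and the TAIR10.1 RefSeq gene table, which also gave the order of genes. Of 13513 probe sets with 1 symbol, 13436 matched a locus, 503 had several symbols and were not named, and 8730 were unnamed here.

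From the deposited values, log2(signal + 50.0) was taken, with a pseudocount equal to 10% of the trimmed mean. The brightness minimum was 40% of it on the brighter array. Since each genotype had 1 array, no test was run and no error can be given, and the number of arrays limits the precision. The members and lists were chosen with earlier results of these data known. All members, all measured genes within 2 places of a member, the 3 genes nearest to AT3G22060, and up to 4 genes per direction in each list were to be named. Further named genes were chosen after their values were seen. Sequence motifs of proteins and promoters had been planned and were not analysed here. The calculation was tested on simulated data. The alternatives were 3 scalings, 2 pseudocounts, 3 brightness minimums, removal of probe sets of several genes and a rule of 3 local SDs. Python 3.11.15, numpy 2.4.6, pandas 2.3.3, statsmodels 0.14.6 and matplotlib 3.10.9 were used.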

Additional observations from a re-analysis of the deposited data

How the results depend on the processing

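No paired analysis was possible because there was only 1 array of either genotype. The median of -1.97 for AT3G22060 and AT5G48540 became -2.49 when 1 was added to each signal and -1.52 when 25% of the trimmed mean was added, and AT3G22060 alone was at -3.16 and -1.96. Raising the minimum to 100% left 1 member, AT3G22060, at least 2-fold lower, so that the median was its own -2.51. With signals below the minimum set to it, AT3G22060 was at -1.46 and AT5G48540 at -0.65. The 270 lower and 136 higher probe sets became 209 higher with the pseudocount of 1, 75 higher with that of 25%, and 178 lower and 83 higher with the minimum of 100%, which left 6938 probe sets. Of 212 values under the alternatives, 200 stayed within the local SD or within 1.5 times the count, and 12 moved. Among differences of at least 2-fold, 0 changed sign. These totals are no measure of robustness, because many values were counts of 0 for lists with few measured genes. Only AT3G22060, AT5G48540 and their median were such differences, and the minimum fixes their sign. A minimum used only to select probe sets cannot alter the ratio of a member. By the rule of 3 local SDs both members were lower, among 255 probe sets in all (2.26%), which adds no support because they were chosen on these values. The removal of probe sets of several genes took out neither member and tested nothing for them. The planned DUF26 list defined by protein motif was not run. Signal over background limits all genes below the minimum, since no detection calls were used.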
